A study of Rattus norvegicus with 4 samples.

Results

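The genes of the Wnt pathway were compared between 2 clones of PC12, a neural cell line from a rat pheochromocytoma, a tumour of the adrenal medulla. They were taken by gene name: the Wnt ligands, the Frizzled (Fzd) receptors, the Sfrp and Dkk antagonists, and Ctnnb1, Axin1, Axin2, Lef1, Tcf7, Tcf7l1, Lrp6 and Apc. This gave 42 of the 25810 genes in the files, of which 19 encode ligands, 8 receptors, 8 antagonists, 4 β-catenin or the destruction complex, and 3 nuclear effectors. Lrp5 and Tcf7l2 belong to the same set and were not analysed here.

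Wnt ligands are secreted lipid-modified proteins that bind Frizzled receptors and the co-receptors Lrp5 and Lrp6. Without a ligand, Axin, Apc and the kinases Gsk3 and Ck1 hold β-catenin (Ctnnb1) in a destruction complex, and the Tcf/Lef factors at target genes recruit corepressors. With a ligand, β-catenin escapes, enters the nucleus and binds Tcf/Lef, while Sfrp proteins bind the ligands and most Dkk proteins bind Lrp5 and Lrp6. In the sympathoadrenal lineage, from which PC12 derives, the pathway is known for its part in neural crest induction and in the growth of neurites.

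The wild type clone, wtPC12, is labelled as having low levels of REST, a repressor of neuronal genes, and the clone hrPC12, earlier named PC12-27, as having high levels. Both are clones of the same line, with no treatment or transgene named in the labels, and the high REST of hrPC12 arose spontaneously. Each was sequenced in 2 libraries, with 20975027 and 21999191 reads on genes in wtPC12 and 27246502 and 21634943 in hrPC12. As each REST level is a single clone, an effect of REST cannot be told apart from other differences of these clones, and nothing in the labels says that the libraries came from separate cultures, so p values measure only the spread between these libraries, which may be technical.

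Rest had 43.0 and 132 normalized counts in the wtPC12 libraries and 964 and 915 in those of hrPC12, where a normalized count is the read count scaled to a common library size. Its log2 FC (hrPC12/wtPC12) was 3.42 with a standard error (SE) of 0.57 and an adjusted p of 0.0115, which passed the threshold of 2 for the log2 FC and not that of 0.01 for the adjusted p. It passed both with RLE factors (0.00207), library totals (0.00356), every gene tested (0.00145), the legacy option off (0.00918), DESeq2 (1.98e-10) and without any library other than wtPC12 replicate 2, but not with filterByExpr (0.0109) or without wtPC12 replicate 2 in edgeR (0.0134). With 1 library left out the log2 FC ran from 2.80 to 4.44. Of the chromaffin cell markers 5 of 7 tested (71.4%) fell in hrPC12 (Th, Dbh, Chgb, Slc18a1 and Phox2a), with a summed level of 815000 to 953000 in wtPC12 and 45900 to 50400 in hrPC12, while Ddc and Slc18a2 did not pass. Of the fibroblast and mesenchyme markers 6 of 7 (85.7%) rose, and the sum over all 7 was 16300 to 18100 in wtPC12 and 95400 to 100000 in hrPC12. Most of that sum in wtPC12 was Thy1, which was lower in hrPC12 (17900 and 16200 against 8530 and 8670; log2 FC -0.99, adjusted p = 0.0137). Of the skeletal muscle markers 4 of 5 (80%) rose, with a sum over all 5 of 156 to 237 in wtPC12 and 4630 to 5040 in hrPC12, while Des had 72.1 and 37.1 against 17.8 and 9.11. Of the epithelium markers 2 of 4 tested (50%) fell (a sum of 36000 to 46900 in wtPC12 and 8220 to 8310 in hrPC12), while Krt19 had 3.49 and 3.09 against 28.8 and 27.3. Of the endothelium markers 1 of 3 (33.3%) rose, Vwf, and the sum was 95.4 to 115 in wtPC12 and 619 to 627 in hrPC12. None of the 2 tested leukocyte markers and not the 1 tested glia marker passed, while Ptprc and Pecam1 had at most 2 reads in a library and Sox10 none. Beside these counts, 5.46% of all tested genes were lower and 4.84% higher past the same thresholds. Vim, Col1a1, Col1a2, Fn1, Myog and Krt19 passed the filter on low counts only through hrPC12. Without them 2 of 3 fibroblast and mesenchyme markers and 3 of 4 skeletal muscle markers rose. The part of these differences in the results below was not tested, and in bulk RNA fewer cells of a type and less RNA per cell cannot be told apart.

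The upstream sequences of some of the Wnt genes that changed are shown first, beside those of genes they are set against below. Of the 42 genes 30 were found in the RefSeq promoter table of the rat build GRCr8, which holds the 250 bases before and the 50 bases after each start site. Wnt10a, Fzd9, Tcf7l1 and Fzd1 are shown because they passed both thresholds, Wnt6 because it is the next protein coding gene to Wnt10a, and Axin2 because it is a widely used target of the pathway. Capitals mark matches to the motifs searched on both strands, the Tcf/Lef core CTTTGAT, its variant CTTTGTT, and the left and right parts of the RE-1 element that REST binds, TTCAGCACC and GGACAGC.
Wnt10a (GRCr8, chr9:83798344-83798643, + strand): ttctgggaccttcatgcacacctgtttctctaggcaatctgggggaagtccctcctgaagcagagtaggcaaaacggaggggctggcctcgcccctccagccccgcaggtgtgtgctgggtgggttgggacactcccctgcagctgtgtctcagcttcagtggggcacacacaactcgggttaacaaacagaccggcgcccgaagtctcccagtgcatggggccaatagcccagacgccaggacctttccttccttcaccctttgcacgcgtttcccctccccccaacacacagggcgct
Wnt6 (GRCr8, chr9:83778302-83778601, + strand): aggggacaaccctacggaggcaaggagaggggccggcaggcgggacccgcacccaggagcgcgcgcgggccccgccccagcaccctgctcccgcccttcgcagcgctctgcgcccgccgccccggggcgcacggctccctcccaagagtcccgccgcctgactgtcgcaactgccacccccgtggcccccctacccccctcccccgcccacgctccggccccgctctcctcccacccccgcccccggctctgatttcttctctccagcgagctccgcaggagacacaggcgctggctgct
Fzd9 (GRCr8, chr12:27063390-27063689, + strand): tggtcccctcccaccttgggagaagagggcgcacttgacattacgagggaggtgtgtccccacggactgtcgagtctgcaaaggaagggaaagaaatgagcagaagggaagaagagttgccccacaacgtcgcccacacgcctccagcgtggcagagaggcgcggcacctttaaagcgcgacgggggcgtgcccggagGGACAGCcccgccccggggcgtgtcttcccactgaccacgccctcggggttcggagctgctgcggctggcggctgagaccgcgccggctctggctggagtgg
Fzd1 (GRCr8, chr4:30264824-30265123, + strand): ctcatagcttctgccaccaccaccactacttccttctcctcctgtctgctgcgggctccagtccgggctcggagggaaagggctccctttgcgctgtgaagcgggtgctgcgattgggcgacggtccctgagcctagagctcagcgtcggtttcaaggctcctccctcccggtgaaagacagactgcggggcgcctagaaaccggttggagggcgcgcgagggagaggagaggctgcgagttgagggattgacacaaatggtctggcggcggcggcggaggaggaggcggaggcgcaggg
Tcf7l1 (GRCr8, chr4:106403372-106403671, - strand): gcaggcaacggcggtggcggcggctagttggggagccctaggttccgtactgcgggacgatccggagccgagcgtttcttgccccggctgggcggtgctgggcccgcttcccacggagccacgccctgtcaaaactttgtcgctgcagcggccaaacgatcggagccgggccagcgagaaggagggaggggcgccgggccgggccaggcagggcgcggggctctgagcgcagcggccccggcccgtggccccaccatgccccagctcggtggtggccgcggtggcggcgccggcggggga
Axin2 (GRCr8, chr10:94398535-94398834, + strand): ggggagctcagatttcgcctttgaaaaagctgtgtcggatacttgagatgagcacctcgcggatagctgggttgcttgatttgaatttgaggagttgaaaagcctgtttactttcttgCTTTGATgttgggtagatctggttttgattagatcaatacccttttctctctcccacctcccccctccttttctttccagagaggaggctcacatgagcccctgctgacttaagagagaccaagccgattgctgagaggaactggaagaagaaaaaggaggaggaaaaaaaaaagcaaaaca
CTTTGAT was found in 3.63% of all 33469 promoters and in those of Axin2, where it began 132 bases before the start site, and Tcf7, where it began 4 bases before it. CTTTGTT was found in 5.98% of all promoters and in those of Dkk1 and Wnt3. GGACAGC was found in 6.59% of all promoters and, among the Wnt genes, in Fzd5 (134 bases before the start site) and Fzd9 (52 bases before), while TTCAGCACC, in 0.356% of all, was in none of the 30. The GC content of the shown promoters ran from 45.7% in Axin2 to 76.3% in Wnt6. A match is a stretch of letters and not a bound site, and the absence of one speaks only of this window.

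In hrPC12 the RNA levels of a few of the tested Wnt genes changed past both thresholds, in both directions. The ligand Wnt10a, the receptor Fzd9 and the antagonist Dkk3 fell, and the receptor Fzd1 and the nuclear effector Tcf7l1 rose. Wnt3a, read in wtPC12 alone, and Dkk2, read in hrPC12 alone, were kept out of the test and are described below. Of the 42 genes 38 had at least 1 read, 12 had at most 3 reads in each of the 4 libraries, and 26 had a mean of at least 5 normalized counts with reads in both clones and were tested. Of the 26, 3 were lower past both thresholds (11.5%, where 5.46% of all 13726 tested genes were) and 2 were higher (7.69%, where 4.84% of all were). At an adjusted p under 0.05 with any fold, 8 were lower (30.8%, against 16.3% of all genes), 3 were higher (11.5%, against 16.1%) and 15 were neither. Wnt2b, Wnt5b, Sfrp4 and Sfrp5 averaged 5 normalized counts in wtPC12 alone and so passed the filter only through the clone in which they are higher. Without these 4, of the 22 left, 3 were lower and 2 higher past both thresholds. At an adjusted p under 0.05, 7 of the 22 were lower (31.8%, against 16.3% of all genes) and 3 higher (13.6%, against 16.1%). The libraries of the clones did not overlap in 19 of the 26 genes (73.1%), as in 73.5% of all, a share close to that background. The median log2 FC of the 26 was -0.31, that of all tested genes 0.06, and the SE of single genes ran from 0.16 to 1.14. With filterByExpr, which leaves out Wnt2b, Wnt5b, Sfrp4 and Sfrp5, the median of the remaining 22 was -0.13.

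In edgeR these calls were lost without wtPC12 replicate 2, as were those of all genes, so the loss says nothing particular to these 5. The log2 FC was then -6.30 for Dkk3, -4.83 for Fzd9, -4.15 for Wnt10a, 2.68 for Fzd1 and 5.21 for Tcf7l1. These are about as large as with all 4 libraries. With wtPC12 replicate 2 left out and the lone library assumed to vary like those of hrPC12, edgeR called none of the 26 genes and none of the 13726, with a smallest adjusted p of 0.013, although 13 of the 26 had an unadjusted p under 0.05. DESeq2 on the same 3 libraries called 3 lower and 3 higher, with Lrp6 beside the 5 above. Without wtPC12 replicate 1 edgeR called 4 lower and 1 higher, with Fzd1 lost and Fzd5 gained.

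**Figure D1:**
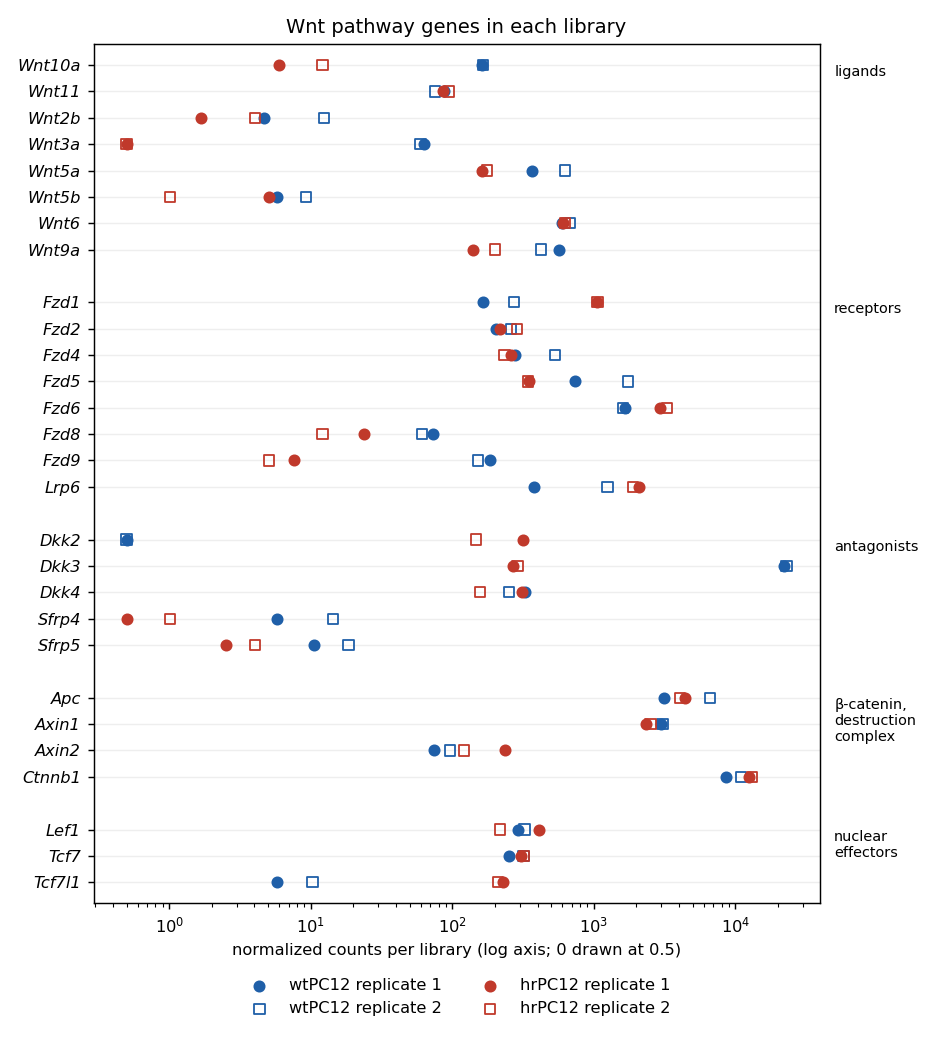
Normalized counts of each tested Wnt gene, with Wnt3a and Dkk2 added, in the 4 libraries on a log axis, with wtPC12 in blue, hrPC12 in red, circles for replicate 1 and squares for replicate 2; a count of 0 is drawn at 0.5. Wide gaps between the clones are seen for Dkk3 (21900 and 23000 against 268 and 289), Dkk2 (0 in wtPC12), Wnt3a (0 in hrPC12), Fzd9, Wnt10a and Tcf7l1. The symbols of Wnt6, Wnt11, Fzd2 and Tcf7 lie close together. For Lef1 those of hrPC12 (411 and 216) lie on either side of those of wtPC12 (292 and 324).

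Of the 19 ligands 7 were tested, and Wnt10a passed both thresholds, as lower (14.3%, against 5.46% of all tested genes). At an adjusted p under 0.05, 3 were lower (42.9%, against 16.3%) and none was higher (against 16.1%), and Wnt6 and Wnt11 overlapped between the clones. Without Wnt2b and Wnt5b, which passed the filter only through wtPC12, 3 of 5 were lower (60%). The summed level of all 19 ligands was 1850 to 2060 normalized counts in wtPC12 and 1010 to 1120 in hrPC12. The median log2 FC of the 7 tested was -1.54.

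Wnt10a, a ligand of the β-catenin branch, had 161 and 165 normalized counts in wtPC12 and 5.93 and 12.1 in hrPC12. Both hrPC12 libraries lay at 3.64% and 7.46% of the wtPC12 mean. Its log2 FC was -4.17 (SE 0.47, adjusted p = 0.00365), or 18.0-fold lower, and it was -3.73 without hrPC12 replicate 1 and -4.80 without hrPC12 replicate 2. Wnt6, its neighbour on the chromosome with no protein coding gene between them in GRCr8, had 592 and 682 in wtPC12 and 604 and 622 in hrPC12. The libraries of the clones overlapped, and the log2 FC was -0.05 (SE 0.22, adjusted p = 0.859).

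Wnt3a, the ligand most used to activate β-catenin in culture, had 54 and 58 reads in wtPC12, or 62.8 and 59.7 normalized counts, and no read in either hrPC12 library. A count of 0 allows up to 3 reads, so that Wnt3a was at least 22.0-fold lower in hrPC12, computed with 3 reads in each hrPC12 library. The filter on reads in both clones kept it out of the test.

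Wnt9a is the next protein coding gene to Wnt3a. It had 569 and 421 normalized counts in wtPC12 and 141 and 200 in hrPC12, which did not overlap. The log2 FC of Wnt9a was -1.54 (SE 0.33, adjusted p = 0.0232), short of both thresholds. The adjusted p ran from 0.000386 to 0.0722 over the alternatives and was over 0.05 without wtPC12 replicate 1 (0.0514) and without hrPC12 replicate 1 (0.0722). In this pair both ligands were lower, one of them to no reads, whereas in the pair of Wnt6 and Wnt10a the levels of one overlapped between the clones. The other neighbouring pairs, Wnt1 with Wnt10b and Wnt3 with Wnt9b, had at most 2 reads in any library.

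Wnt5a, the main ligand of the branches that do not use β-catenin, had 365 and 627 normalized counts in wtPC12 and 163 and 176 in hrPC12. The wtPC12 libraries differed from each other, and both were above those of hrPC12. A log2 FC of -1.55 was fitted (SE 0.35, adjusted p = 0.0282), or -1.11 without wtPC12 replicate 2, and over the alternatives the adjusted p ran from 0.000489 to 0.0712. Wnt5b, its close relative, was near the limit of detection with 5.82 and 9.27 in wtPC12 and 5.08 and 1.01 in hrPC12 (log2 FC -1.23, SE 0.84, adjusted p = 0.296), and its log2 FC ran from -2.75 (without hrPC12 replicate 1) to -0.62 (without hrPC12 replicate 2).

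Wnt11, also a ligand of β-catenin independent branches, had 87.2 and 75.2 normalized counts in wtPC12 and 85.5 and 95.1 in hrPC12. The libraries overlapped, and the log2 FC was 0.15 (SE 0.32, adjusted p = 0.728). Wnt2b had 4.65 and 12.4 in wtPC12 and 1.69 and 4.05 in hrPC12 (log2 FC -1.58, SE 0.82, adjusted p = 0.191), with at most 12 reads in a library. Its log2 FC ran from -2.31 (without hrPC12 replicate 2) to -0.71 (without wtPC12 replicate 2). Wnt7b had 0 and 1 reads in wtPC12 and 4 and 1 in hrPC12 and was not tested. Wnt2, Wnt8b and Wnt16 had no reads, and Wnt1, Wnt3, Wnt4, Wnt7a, Wnt8a, Wnt9b and Wnt10b had at most 3 in a library, too few for a difference to be detectable at this depth.

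The 8 receptors were all tested. Past both thresholds Fzd9 fell (12.5%, against 5.46% of all tested genes) and Fzd1 rose (12.5%, against 4.84%). At an adjusted p under 0.05 Fzd5 and Fzd8 were also lower (37.5%, against 16.3%) and Fzd6 was also higher (25%, against 16.1%). Their summed level, 3690 to 5860 normalized counts in wtPC12, was 6920 to 7120 in hrPC12, and their median log2 FC was -0.30. The order of the receptors by read count is not an order of abundance, since counts per gene also depend on transcript length.

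Fzd9, a Frizzled known from the nervous system and from bone, had 186 and 151 normalized counts in wtPC12 and 7.62 and 5.06 in hrPC12. Only 9 and 5 reads were left in the hrPC12 libraries. The log2 FC was -4.69 (SE 0.43, adjusted p = 0.00200), or 25.9-fold lower, and it stayed between -5.02 and -4.49 with any 1 library left out. Its promoter is the one of those shown that holds GGACAGC.

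Fzd1, a receptor of the β-catenin branch, had 165 and 274 normalized counts in wtPC12 and 1060 in both hrPC12 libraries. The hrPC12 libraries were nearly equal and both were above those of wtPC12. Its log2 FC was 2.27 (SE 0.32, adjusted p = 0.00719), or 4.82-fold higher. The call depends on wtPC12 replicate 1, without which the log2 FC was 1.92 and the adjusted p 0.00844, within a range of 4.16e-11 to 0.0155 over all alternatives in edgeR and DESeq2.

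Fzd6, a Frizzled of planar cell polarity, had 1670 and 1600 normalized counts in wtPC12 and 2920 and 3290 in hrPC12. The clones did not overlap and the log2 FC of 0.92 had the smallest error among the receptors (SE 0.17, adjusted p = 0.0160). Without hrPC12 replicate 2 its adjusted p was 0.112, the top of a range that began at 0.00280 in DESeq2.

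Fzd5, a receptor of Wnt5a among others, had 733 and 1740 normalized counts in wtPC12 and 347 and 343 in hrPC12. The spread lay in wtPC12, whose libraries differed 2.37-fold. The log2 FC was -1.84 (SE 0.45, adjusted p = 0.0334), and it was -2.36 without wtPC12 replicate 1, where Fzd5 passed both thresholds (adjusted p = 0.00341), and -1.09 without wtPC12 replicate 2. Over the alternatives its adjusted p ran from 0.000129 to 0.0334. The median log2 ratio of wtPC12 replicate 2 to replicate 1 over the 10 genes next to Fzd5 was 1.25, close to that of Fzd5 itself, and 0.0823% of such windows along the genome were as high.

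Fzd8 had 73.3 and 60.8 normalized counts in wtPC12 and 23.7 and 12.1 in hrPC12, without overlap (log2 FC -1.88, SE 0.48, adjusted p = 0.0372). Over the alternatives its adjusted p ran from 0.0136 to 0.186, and it was over 0.05 in edgeR when wtPC12 replicate 1 (0.0800), wtPC12 replicate 2 (0.0876) or hrPC12 replicate 2 (0.109) was left out. Fzd4 had 277 and 532 in wtPC12 and 259 and 234 in hrPC12 (log2 FC -0.71, SE 0.38, adjusted p = 0.203). Fzd2 had 204 and 260 in wtPC12 and 216 and 286 in hrPC12, which overlapped (log2 FC 0.12, SE 0.31, adjusted p = 0.784).

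Lrp6, the co-receptor that carries the signal of the β-catenin branch into the cell, had 380 and 1250 normalized counts in wtPC12 and 2090 and 1880 in hrPC12. Both hrPC12 libraries were above those of wtPC12, which differed 3.28-fold from each other. Of all tested genes 5.60% had a wider gap between the wtPC12 libraries, while the 10 neighbours of Lrp6 had a median log2 ratio of -0.22. The log2 FC was 1.28 (SE 0.56, adjusted p = 0.134), and either 0.64 or 2.38 with wtPC12 replicate 1 or replicate 2 left out. DESeq2 on all 4 libraries gave an adjusted p of 0.0363, and the alternatives ranged from 1.83e-12 to 0.134.

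**Figure D2:**
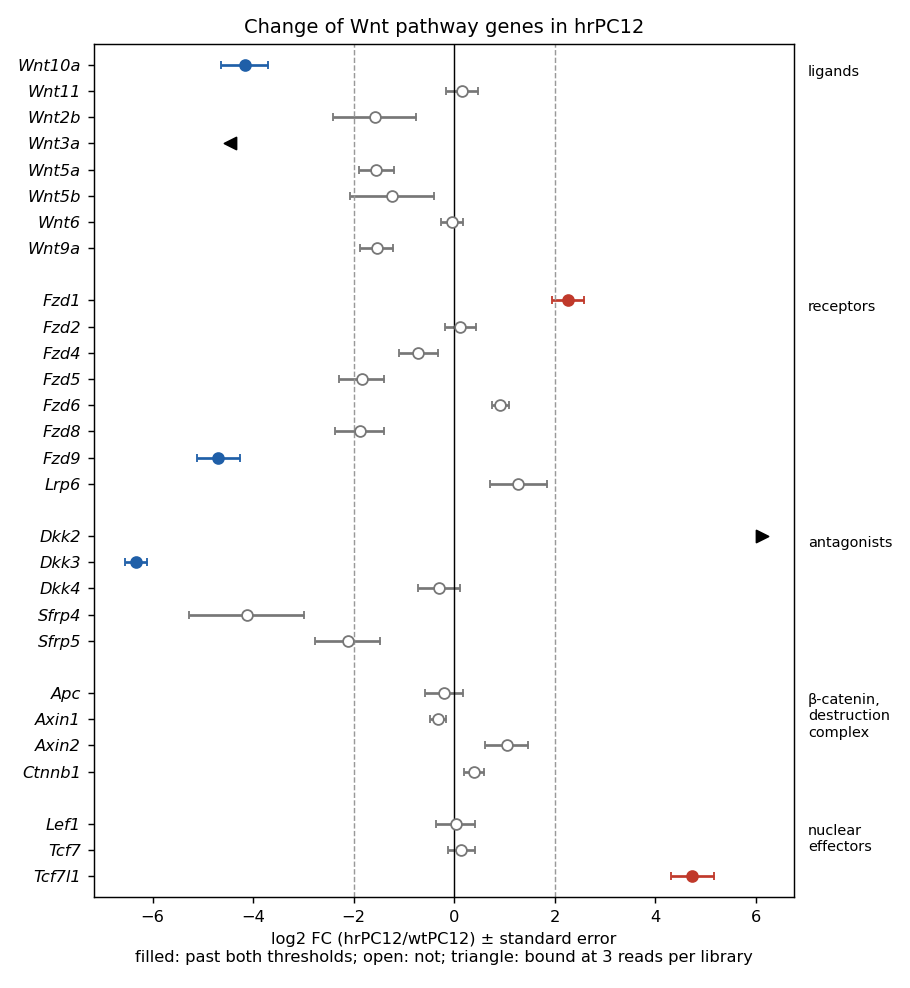
The log2 FC (hrPC12/wtPC12) of each tested Wnt gene with its SE as bars; filled symbols passed both thresholds (blue lower, red higher), open symbols did not, dashed lines mark a log2 FC of -2 and 2, and triangles mark the bounds of Wnt3a (-4.46) and Dkk2 (6.13) at 3 reads per library. Dkk3 at -6.33 and Tcf7l1 at 4.74 are the outermost of the filled symbols, and the genes of the destruction complex lie within about 1 of 0.

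The antagonists held a gene that fell, Dkk3, and one with reads in hrPC12 alone, Dkk2. Their summed level was 22300 to 23200 normalized counts in wtPC12 and 604 to 899 in hrPC12, and nearly all of the wtPC12 sum was Dkk3. The fall of this sum is mainly that of Dkk3 and does not describe the other antagonists. Of the 8, 4 were tested. Dkk3 was lower past both thresholds (25%, against 5.46% of all tested genes), and Dkk3 and Sfrp4 at an adjusted p under 0.05 (50%, against 16.3%), of which Dkk3 alone is left without Sfrp4 and Sfrp5, the pair that passed the filter only through wtPC12. None was higher, although Dkk2, which had no reads in wtPC12, was not among those tested.

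Dkk3, a secreted glycoprotein and the divergent member of the Dickkopf family, had 21900 and 23000 normalized counts in wtPC12 and 268 and 289 in hrPC12. Both hrPC12 libraries lay at 1.19% and 1.29% of the wtPC12 mean. The log2 FC of Dkk3 was -6.33 (SE 0.21, adjusted p = 0.000243), or 80.6-fold lower, and stayed between -6.44 and -6.28 with any 1 library left out.

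Dkk2, which binds Lrp5 and Lrp6, went the other way. It had no read in wtPC12 and 371 and 146 reads in hrPC12, or 314 and 148 normalized counts. With 3 reads allowed in each wtPC12 library this was at least 70.2-fold higher, or at least 45.0-fold without hrPC12 replicate 1. It was kept out of the test as Wnt3a was. The hrPC12 libraries differed 2.13-fold, which is taken up with the neighbouring genes further on.

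Dkk4, another ligand of Lrp5 and Lrp6, had 325 and 250 normalized counts in wtPC12 and 310 and 156 in hrPC12. The libraries overlapped, and the log2 FC was -0.30 (SE 0.41, adjusted p = 0.593). Dkk1 had 1 read in each wtPC12 library and none in hrPC12. Of the family of 4, then, one member was lower, one was detected in hrPC12 alone, one overlapped between the clones, and one was at the limit of detection.

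The Sfrp genes, whose products bind Wnt ligands through a domain like that of Frizzled, had few reads. Sfrp4 had 5.82 and 14.4 normalized counts in wtPC12 and 0 and 1.01 in hrPC12. With 19 reads against 1, the ratio of wtPC12 to hrPC12 was 22.5, with an exact 95% counting interval of 3.58 to 936 that covers counting error only. Since it passed the filter only through wtPC12, its p value is not given as support. The log2 FC was -4.13 (SE 1.14), -3.18 without hrPC12 replicate 1 and -6.40 without hrPC12 replicate 2. Sfrp5 had 10.5 and 18.5 in wtPC12 and 2.54 and 4.05 in hrPC12, without overlap (log2 FC -2.12, SE 0.64), and it too passed the filter only through wtPC12. Sfrp2 had 0 and 3 reads in wtPC12 and 6 in each hrPC12 library and was not tested, and Sfrp1 had no reads.

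None of the 4 genes of β-catenin and the destruction complex was called in edgeR, or had an unadjusted p under 0.05. Their log2 FC ran from -0.32 to 1.05, with a median of 0.10, and their summed level was 14800 to 20700 normalized counts in wtPC12 and 19400 to 19800 in hrPC12.

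Ctnnb1, β-catenin itself, had 8550 and 10900 normalized counts in wtPC12 and 12400 and 13100 in hrPC12. Both hrPC12 libraries were above those of wtPC12, without passing the test (log2 FC 0.39, SE 0.20, adjusted p = 0.184). Axin1, the scaffold of the destruction complex, had 3000 and 3050 in wtPC12 and 2350 and 2510 in hrPC12. It too did not overlap, with a log2 FC of -0.32 and the smallest SE of the set (0.16, adjusted p = 0.181). Apc, the other scaffold, had 3150 and 6590 in wtPC12 and 4430 and 4070 in hrPC12, so that both hrPC12 libraries lay between those of wtPC12. Its log2 FC of -0.20 (SE 0.37, adjusted p = 0.694) moved to -0.66 with wtPC12 replicate 1 left out and to 0.43 with replicate 2 left out.

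Axin2, the inducible relative of Axin1 and a target of β-catenin, had 74.4 and 96.8 normalized counts in wtPC12 and 234 and 121 in hrPC12. Both hrPC12 libraries were above those of wtPC12, and they differed 1.92-fold from each other. The log2 FC was 1.05 (SE 0.43, adjusted p = 0.120), and 0.50 without hrPC12 replicate 1 and 1.40 without hrPC12 replicate 2. The promoter of Axin2 shown above is one of the 2 among the 30 that hold CTTTGAT.

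Of the 3 nuclear effectors 1 rose (33.3%, against 4.84% of all tested genes). Tcf7l1, the factor of the family that mostly represses, had 5.82 and 10.3 normalized counts in wtPC12 (5 and 10 reads) and 229 and 211 in hrPC12. The groups were far apart. The log2 FC of 4.74 (SE 0.43, adjusted p = 0.00192), or 26.7-fold, was the highest of the 26 tested and stayed between 4.37 and 5.21 with any 1 library left out.

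Lef1, the factor of the family known mostly as an activator, had 292 and 324 normalized counts in wtPC12 and 411 and 216 in hrPC12. Both wtPC12 libraries lay between those of hrPC12. Its log2 FC was 0.03 (SE 0.38, adjusted p = 0.962), -0.52 without hrPC12 replicate 1 and 0.37 without hrPC12 replicate 2. Tcf7 had 251 and 318 in wtPC12 and 306 and 323 in hrPC12, which overlapped (log2 FC 0.14, SE 0.27, adjusted p = 0.698).

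The hrPC12 libraries disagreed by region, on a share of these genes close to that of all placed genes. Genes with a mean of at least 20 normalized counts were ordered along GRCr8, where 8502 (67.5%) could be placed, and for each the log2 ratio of its 10 nearest neighbours, hrPC12 replicate 1 over replicate 2, was summarised by the median. Of the 24 Wnt genes placed, 3 had a neighbour median of at least 0.4 (12.5%, where 13.1% of all placed genes did), so they do not stand out from that background. For Axin2 the neighbour median was 0.72 and its own ratio 0.94, for Lef1 they were 0.78 and 0.93, and for Dkk2 0.84 and 1.09. Lef1 and Dkk2 lie near each other, with 4 protein coding genes between them, and share neighbours. Dkk4 (own ratio 0.99), Fzd8 (0.94) and Wnt10a (-0.98) differed as much between the libraries, with neighbour medians of 0.00, -0.02 and -0.07. In hrPC12 replicate 1 the reads that fell in more than 1 gene were also more frequent, at 0.329% of reads against 0.105% to 0.146% in the other libraries, and the part of this in the values of Axin2, Lef1 and Dkk2 was not tested.

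**Figure D3:**
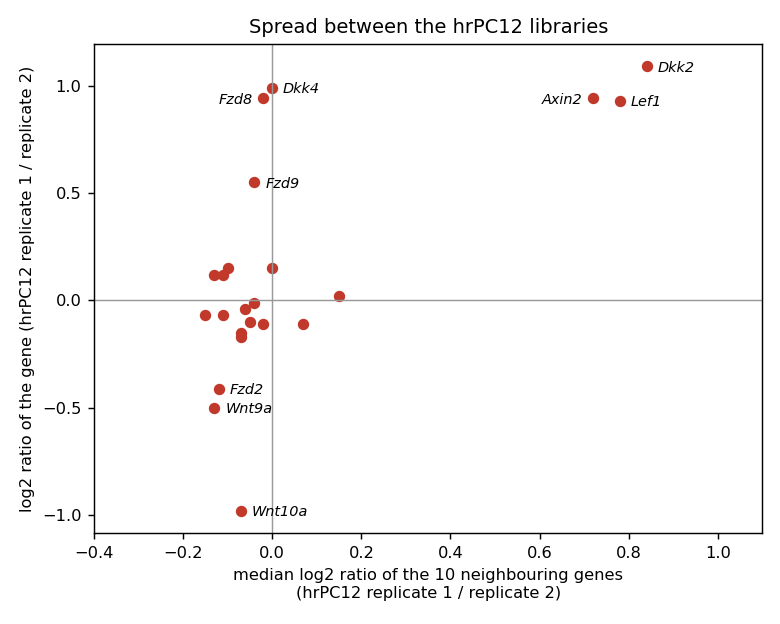
For each of the 23 placed Wnt genes with reads in hrPC12, its own log2 ratio, hrPC12 replicate 1 over replicate 2 (vertical axis), against the median of that ratio over the 10 neighbouring genes (horizontal axis); genes whose own ratio is beyond 0.4 in either direction are named. Axin2, Lef1 and Dkk2 stand at the upper right, where the neighbours were also higher in replicate 1, and Dkk4 and Fzd8 stand at the upper middle, where the neighbours were not.

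The rest of the pathway was described with 110 further genes in 8 lists, of which 87 were in the files and 70, beside the Wnt genes above, were tested. Of the 70, 6 were lower past both thresholds (8.57%, against 5.46% of all tested genes) and 8 higher (11.4%, against 4.84%). At an adjusted p under 0.05, 14 were lower (20%, against 16.3%), 15 higher (21.4%, against 16.1%) and 41 neither, and the median log2 FC was 0.23. Of the 70, 8 averaged 5 normalized counts in one clone alone, and among the other 62, 5 were lower and 4 higher past both thresholds, and 12 (19.4%) and 10 (16.1%) at an adjusted p under 0.05. The genes named here are those at the ends of each list among the ones past both thresholds. Ror1, Rspo1, Rnf43, Kremen2, Cxxc4, Tle2 and Fosl1 are named besides, after their values were seen.

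In the secretion of ligands 1 gene was tested and it fell (100%, against 5.46% of all tested genes). This was Porcn, the enzyme that attaches the lipid to every Wnt ligand. It had 411 and 255 normalized counts in wtPC12 and 53.3 and 48.6 in hrPC12, and fell by 2.70 on the log2 scale (SE 0.37, adjusted p = 0.00665). Without wtPC12 replicate 1 its adjusted p was 0.0104, and over the alternatives it ran from 1.54e-08 to 0.0187.

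Of 4 co-receptors and alternative receptors tested, 1 rose (25%, against 4.84% of all tested genes), none fell, and none rose without Musk. Musk, the receptor kinase of the neuromuscular junction, which carries a Frizzled-like domain, had 1.16 and 2.06 normalized counts in wtPC12 and 1670 in both hrPC12 libraries. With 3 reads against 3629, the ratio was 1020 (95% counting interval 349 to 4950). It passed the filter only through hrPC12, so its p value is not given as support. Ror1, a receptor kinase for Wnt5a, was chosen for mention after its values were seen: it had no reads in wtPC12 and 155 and 138 normalized counts in hrPC12, at least 44.5-fold higher with 3 reads per library, and was not tested.

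Of 4 tested genes of the R-spondin module, which controls the level of Frizzled receptors at the surface, 1 fell past both thresholds and none rose. The share lower was 25%, against 5.46% of all tested genes. Rnf43 was higher at an adjusted p under 0.05 (25%, against 16.1%), but it passed the filter only through hrPC12. The gene that fell was Lgr5. It had 315 and 422 normalized counts in wtPC12 and 77.9 and 80.9 in hrPC12 (log2 FC -2.21, SE 0.31, adjusted p = 0.00687), and was not past both thresholds without hrPC12 replicate 2 (adjusted p = 0.0131, in a range of 1.10e-07 to 0.0249 over the alternatives). Rspo1, an R-spondin also chosen after its values were seen, had 16.3 and 19.6 in wtPC12 and none in hrPC12, at least 6.43-fold lower. Of 3 other antagonists tested, 1 rose past both thresholds (33.3%, against 4.84% of all tested genes) and none fell. It was Igfbp4, a binding protein for insulin-like growth factors that also binds Wnt receptors. Igfbp4 had 14.0 and 8.24 in wtPC12 and 156 and 186 in hrPC12 (log2 FC 3.94, SE 0.43, adjusted p = 0.00340). Kremen2 went the other way, with 71.0 and 53.6 in wtPC12 and 4.23 and 13.2 in hrPC12. Its log2 FC was -2.85 (SE 0.62, adjusted p = 0.0250), short of the threshold for the adjusted p.

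Of 8 genes of planar cell polarity, the branch that orients cells in a sheet, 1 fell (12.5%, against 5.46% of all tested genes) and 2 rose (25%, against 4.84%). Celsr3, an atypical cadherin of neurons, had 5410 and 12900 normalized counts in wtPC12 and 101 and 110 in hrPC12 (log2 FC -6.44, SE 0.53, adjusted p = 0.00146), with a log2 FC of -6.96 without wtPC12 replicate 1 and -5.68 without replicate 2. Prickle1 had 107 and 156 in wtPC12 and 959 and 567 in hrPC12 (log2 FC 2.54, SE 0.39, adjusted p = 0.00938), and Vangl1 had 234 and 380 in wtPC12 and 1200 and 1370 in hrPC12 (log2 FC 2.06, SE 0.31, adjusted p = 0.00879). Without wtPC12 replicate 1 neither Prickle1 (adjusted p = 0.0238) nor Vangl1 (adjusted p = 0.0134) passed, nor did Vangl1 without hrPC12 replicate 2 (log2 FC 1.92), and the alternatives ranged from 8.77e-09 to 0.0450 for Prickle1 and from 7.80e-10 to 0.0187 for Vangl1.

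Of 20 cytoplasmic transducers 2 fell (10%, against 5.46% of all tested genes) and none rose (against 4.84%), and at an adjusted p under 0.05 4 were lower (20%, against 16.3%) and 2 higher (10%, against 16.1%). One of the 4 lower genes, Cxxc4, passed the filter only through wtPC12, and without it 3 of 19 were lower (15.8%). Apc2, the neuronal relative of Apc, had 2360 and 3740 normalized counts in wtPC12 and 472 and 497 in hrPC12 (log2 FC -2.65, SE 0.29, adjusted p = 0.00320). Dact3, a partner of Dishevelled, had 628 and 624 in wtPC12 and 128 and 132 in hrPC12 (log2 FC -2.27, SE 0.25, adjusted p = 0.00336). None of 16 nuclear cofactors passed both thresholds in edgeR, and 7 had an unadjusted p under 0.05. At an adjusted p under 0.05, 2 were lower (12.5%, against 16.3% of all tested genes) and 1 was higher (6.25%, against 16.1%). Tle2, among the lower, had 681 and 998 normalized counts in wtPC12 and 214 and 206 in hrPC12. At 3.99-fold lower (SE 0.29, adjusted p = 0.00789) it was just short of the threshold for the log2 FC.

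Of 19 tested genes reported as targets of β-catenin, 3 of which are Axin2, Lef1 and Tcf7, 2 fell (10.5%, against 5.46% of all tested genes) and 4 rose (21.1%, against 4.84%) past both thresholds. At an adjusted p under 0.05 3 were lower (15.8%, against 16.3%) and 7 higher (36.8%, against 16.1%), with a median log2 FC of 0.71. These shares rest on genes that averaged 5 normalized counts in 1 clone alone. Without them, of the 13 left, 1 fell and 1 rose past both thresholds. At an adjusted p under 0.05, 2 of the 13 were lower (15.4%, against 16.3%) and 3 higher (23.1%, against 16.1%). The gene left that rose was Fosl1, with 187 and 203 normalized counts in wtPC12 and 1960 and 2110 in hrPC12. Its log2 FC was 3.38 (SE 0.21, adjusted p = 0.000763). Ephb2, a receptor for ephrins, had 343 and 624 normalized counts in wtPC12 and 1.69 and 0 in hrPC12 (ratio of wtPC12 to hrPC12 534, 95% counting interval 147 to 4420). Cd44, the hyaluronan receptor, had 3.49 and 2.06 in wtPC12 and 320 and 319 in hrPC12 (ratio 117, interval 49.9 to 361), and Wisp1, a matricellular protein, 0 and 1.03 in wtPC12 and 77.9 and 83.0 in hrPC12 (ratio 147, interval 26.0 to 5830). These 3 passed the filter only through the clone in which they are high, so their p values are not given as support. With 1 library left out the log2 FC of Ephb2 ran from -11.83 (without hrPC12 replicate 1) to -8.11 (without hrPC12 replicate 2), and that of Wisp1 from 6.10 (without wtPC12 replicate 1) to 9.35 (without wtPC12 replicate 2). Lgr5, described above, was among the 6 called, and Axin2, Lef1 and Tcf7 were not. As background, the genes of this list also have other regulators.

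**Figure D4:**
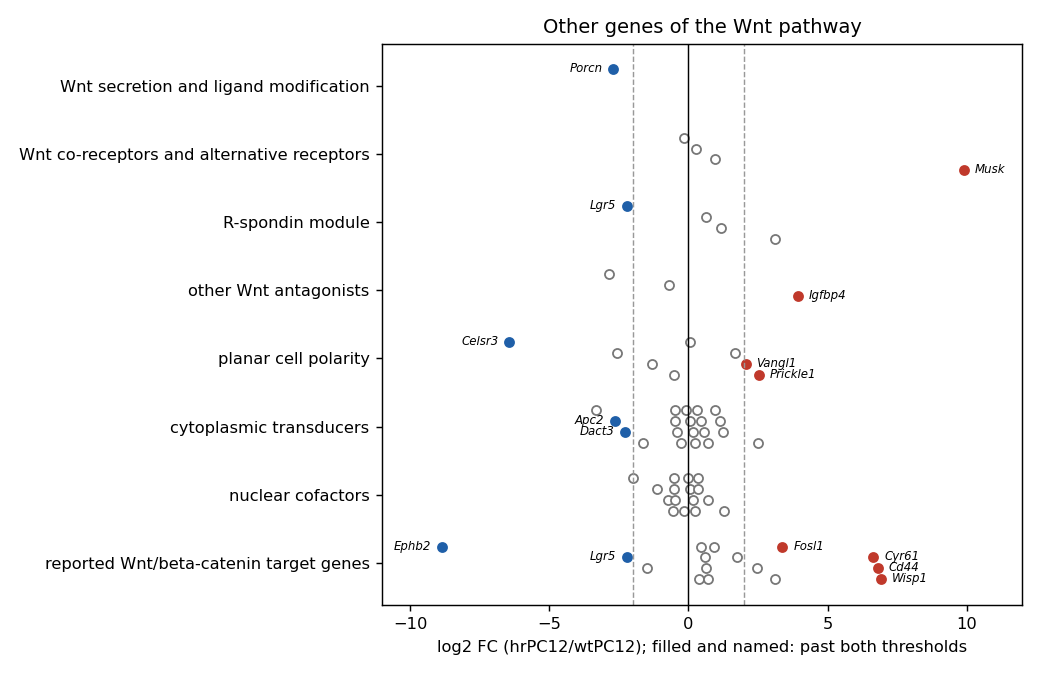
The log2 FC (hrPC12/wtPC12) of the other tested pathway genes by list, one circle per gene, with genes past both thresholds filled (blue lower, red higher) and named, dashed lines at -2 and 2, and Lgr5 drawn in both of its lists. Musk at 9.89 and Ephb2 at -8.86 are the outermost, and the nuclear cofactors show no filled circle.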

How the data were processed

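RNA of wtPC12 and hrPC12 was sequenced as paired-end reads from libraries that do not mark strand, so that a gene and its antisense partner cannot be told apart. The authors aligned the reads to rat build rn4 (RGSC3.4) and deposited raw read counts per gene and library. The submitters' processing notes name TopHat2 2.0.4, HTSeq 0.5.3 and DESeq 1.9.12. The authors' table of means, fold changes and p values was not used.

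Here counts were scaled with TMM factors, genes were kept if read in both clones and if their normalized counts averaged 5 or more (13726), and the clones were compared with the quasi-likelihood test of edgeR 4.0.16 (legacy option, common dispersion 0.0745) in R 4.3.3, with Benjamini-Hochberg adjustment over all 13726 genes. The thresholds were an adjusted p of 0.01 and a log2 FC of 2 in either direction. The SE of a log2 FC is its size divided by the square root of the F statistic. A permutation test of 2 against 2 libraries cannot give a 2-sided p under 0.333. Up to 3 reads were taken as the limit of detection, which is 2.54 to 3.49 normalized counts by library and covers counting error only.

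The Wnt genes and all lists were chosen with earlier results of these data known. Every Wnt gene was named or counted, and of each other list up to 2 genes at each end among those past both thresholds were named. Ror1, Rspo1, Rnf43, Kremen2, Cxxc4, Tle2 and Fosl1 were added after their values were seen. On simulated counts of 13626 genes, 200 of them changed, edgeR found 199 and DESeq2 1.42.0 found 198, with 0 false calls each. Far fewer genes changed there than were called here, where edgeR gave 749 lower and 665 higher. The simulation therefore checks only that the procedure runs as intended on simple counts. It does not measure missed or false calls in these libraries, least of all for genes with few reads or near the thresholds. Tried besides were library totals or RLE factors for scaling, every gene with a read, filterByExpr, DESeq2, the legacy option off, an adjusted p of 0.05 at any fold, and each library left out. One more, DESeq2 without wtPC12 replicate 2, was added after the data were seen. Of 42 genes, 12 had no entry in the promoter table.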

Additional observations from a re-analysis of the deposited data

How the results depend on the processing

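The counts of 3 lower and 2 higher Wnt genes were the same with edgeR's RLE factors, library totals, every gene with a read, filterByExpr (22 of the 26 tested), DESeq2 and the legacy option off. With every gene or with filterByExpr, Wnt3a (lower) and Dkk2 (higher) also passed, but they enter those fits only through the clone in which they have reads, which gives no support to the difference. At an adjusted p under 0.05 at any fold 8 were lower and 3 higher. The median log2 FC with filterByExpr was -0.13. With 1 library left out, 0 to 4 were lower and 0 to 2 higher, and the median log2 FC ran from -0.65 to -0.24. The 0 came without wtPC12 replicate 2 in edgeR, as for all genes, and DESeq2 on those libraries gave 3 and 3. Without wtPC12 replicate 1, Fzd1 was lost and Fzd5 gained.

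Of the Wnt genes and the others named, those that changed sign had a log2 FC between -0.30 and 0.15. Lef1 was at -0.03 with RLE factors, -0.02 in DESeq2, and from -0.52 to 0.37 with 1 library left out. Wnt6 was at 0.01 with library totals. With 1 library left out, Wnt6 ran from -0.18 to 0.05, Fzd2 from -0.15 to 0.31, Tcf7 from -0.05 to 0.32, Dkk4 from -0.88 to 0.06 and Apc from -0.66 to 0.43. In DESeq2 without wtPC12 replicate 2 Apc was at 0.36 and Wnt11 at -0.02. The cause was not tested. No paired analysis was run. Replicates were numbered here in the order of the samples, and the labels tie no wtPC12 library to a hrPC12 library. Genes with under about 10 reads, most of the untested ligands among them, are limited by depth.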
